A study of Mus musculus with 27 samples.

Results

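Fibro-adipogenic progenitors (FAPs) are the connective tissue cells that lie between muscle fibres, and 9 genes commonly used to recognise them were followed through 21 days of volumetric muscle loss (VML). The genes were Pdgfra, Pdgfrb, Ly6a, Cd34, Thy1, Pi16, Dpp4, Osr1 and Tcf7l2, and each matched 1 row among the 54532 genes of the deposited table. They were chosen by name, with earlier results of these data known, so their counts are no independent evidence. All samples were tibialis anterior muscles of 8-week-old male C57BL/6 mice. The 27 samples comprised 5 control muscles and 5, 6, 6 and 5 muscles taken 3, 7, 14 and 21 days after 40% of the muscle was excised. The record of the data describes a unilateral excision and the methods of the study a bilateral one, and the controls were uninjured muscle, with no mention of sham surgery in the sources used here. The labels do not say that each sample came from a separate animal, so p-values measure the spread between these samples. Markers of fast skeletal muscle, the labelled tissue, summed to 77520 to 92538 FPKM in the controls and 22522 to 60542 FPKM at day 3. FPKM is the number of fragments of a gene, scaled for the length of the gene and for a total per sample. In the deposited values that total was 0.747 to 1.48 times the sample's own reads, lower in the controls than at day 3.

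FAPs do not form muscle fibres. They secrete matrix and growth factors that help satellite cells, the muscle stem cells, to regenerate fibres, and they can become fat or scar-forming cells when repair fails. The platelet-derived growth factor receptor PDGFRα is their defining surface protein, while PDGFRβ marks pericytes and vascular muscle cells more broadly. SCA-1 (encoded by Ly6a), CD34 and THY1 are surface proteins used in cell sorting that endothelial cells, T cells or neurons can carry as well. DPP4, a peptidase, and PI16, a secreted peptidase inhibitor, mark fibroblasts around vessels, and OSR1 and TCF7L2 are transcription factors of connective tissue cells.

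Of the 9 genes, 8 passed the filter of at least 0.5 FPKM in at least 5 samples and were tested among 14630 genes. Dpp4 reached 0.5 FPKM in 4 samples only and was compared separately. Changes are differences of mean log2(FPKM + 1), fitted with limma, and this scale understates the change of genes near or below 1 FPKM, so ratios of mean FPKM are given beside it. A gene is called at an adjusted p below 0.05. The samples are whole pieces of tissue, so a change in the number of FAPs cannot be told apart from a change in RNA per cell. The reads assigned to genes, recovered from the deposited FPKM, numbered 14376395 to 24436763 per sample. By their overall profile 9 of the 27 samples lay nearest to another group than their own, among them day 3 replicate 5 (nearest to day 7), day 7 replicate 5 (nearest to day 3) and day 7 replicate 3 (nearest to the controls), and values without such samples are given where they matter.

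The promoters of these genes differ in their letters. RefSeq (GRCm38.p6) gave a promoter for 5 of the 9 genes (Pdgfra, Cd34, Pi16, Dpp4 and Tcf7l2), and the 250 bases upstream of the start are shown for Pdgfra, the defining receptor, for Pi16 and Dpp4, whose FPKM were both highest in the same day 7 samples, and for Tcf7l2 (the first of its 2 listed starts), which was called at no time. Capitals mark matches on either strand to 3 motifs. The SP1 box was searched as GGGCGG and is found in 32.74% of the 32851 RefSeq promoters of the same length. The CCAAT box was searched by the letters of its name and is found in 33.85%. The TATA box was searched as TATAAA and is found in 12.37%. A match describes the letters only. The windows lie at chr5:75152001-75152250 (plus strand), chr17:29318632-29318881 (plus strand), chr2:62412232-62412481 (minus strand) and chr19:55741560-55741809 (plus strand), each printed 5′ to 3′ on the strand of the gene.
Pdgfra: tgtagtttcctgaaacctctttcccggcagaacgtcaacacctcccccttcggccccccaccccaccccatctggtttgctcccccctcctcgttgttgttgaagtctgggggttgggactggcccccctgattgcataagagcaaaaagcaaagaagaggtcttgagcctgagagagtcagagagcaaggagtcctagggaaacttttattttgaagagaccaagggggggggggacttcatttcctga
Pi16: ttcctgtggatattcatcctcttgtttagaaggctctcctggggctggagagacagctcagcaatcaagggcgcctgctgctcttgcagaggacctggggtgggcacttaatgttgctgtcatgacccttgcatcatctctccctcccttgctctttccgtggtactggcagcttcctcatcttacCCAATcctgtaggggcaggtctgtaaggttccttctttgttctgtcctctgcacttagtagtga
Dpp4: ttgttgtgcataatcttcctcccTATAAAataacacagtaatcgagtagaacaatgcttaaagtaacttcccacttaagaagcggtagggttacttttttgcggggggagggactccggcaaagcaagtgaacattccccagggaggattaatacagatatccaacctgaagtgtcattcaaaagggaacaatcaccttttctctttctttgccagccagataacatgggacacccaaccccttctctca
Tcf7l2: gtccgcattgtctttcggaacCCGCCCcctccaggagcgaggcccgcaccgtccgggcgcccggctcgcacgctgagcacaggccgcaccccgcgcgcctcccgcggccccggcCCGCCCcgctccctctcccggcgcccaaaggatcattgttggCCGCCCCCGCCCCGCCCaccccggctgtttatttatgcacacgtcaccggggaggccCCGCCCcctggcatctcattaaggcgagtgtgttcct
At its first start Tcf7l2 had 6 SP1 box matches in a window of 72.8% GC. Its second start, not shown, had 0 SP1 box matches and 1 TATA match at 40.8% GC. Pi16 had 1 CCAAT match, Dpp4 had 1 TATA match at 43.6% GC, and Pdgfra had none of the 3 at 54.4% GC. The median GC of all promoters was 52.4%.

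In the control muscles the genes spanned a wide range of FPKM, which is per length and so can be compared between genes. Ly6a stood first at 61.8 ± 8.11 (mean ± SD, n = 5), far above Pdgfrb at 9.31 ± 1.16 and Cd34 at 8.98 ± 1.38, which lay within their spread of each other. Thy1 followed at 4.04 ± 0.630 and Pi16 at 2.51 ± 1.12. Osr1, Pdgfra and Tcf7l2 lay close together at 1.20 ± 0.454, 0.942 ± 0.352 and 0.693 ± 0.236, and Dpp4 was lowest at 0.173 ± 0.129. Few reads lie behind the low values, 18 to 53 per control sample for Osr1 and 2 to 35 for Dpp4.

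After VML the tested genes were higher more often than lower. At day 3, 4 of the 8 were called (Thy1, Osr1, Pdgfra and Ly6a), where 43.2% of all tested genes were called in either direction. At day 7, 4 were called (Thy1, Osr1, Pi16 and Pdgfra), against 29.4% of all tested genes. At day 14, 4 were called (Thy1, Osr1, Cd34 and Pdgfra), against 20.3%, and at day 21 the 2 genes Osr1 and Thy1, against 3.43%. Every member called was higher than in the controls, while the genes called over the whole table were 3417 higher and 2899 lower at day 3, 2189 and 2107 at day 7, 1320 and 1649 at day 14 and 255 and 247 at day 21. The median log2 change of the 8 genes was 0.57, 0.65, 0.53 and 0.29 at days 3, 7, 14 and 21, while that of all tested genes was 0.01, 0.03, 0.02 and 0.01. Pdgfrb and Tcf7l2 were called at no time. These counts depend on how samples are scaled. Median-ratio scaling, which makes the typical gene equal between samples, left the genes called at day 3 nearly unchanged (6313 against 6316). The small median of all tested genes is thus set by the scaling, and their near-even split goes with it. Neither is an independent background. When FPKM was rescaled to a common sum or to each sample's own reads, all 8 genes were called at days 3 and 7, but the median of all genes was then raised to 0.62 and 0.40 at day 3 and to 0.58 and 0.36 at day 7. With a common sum the split of all called genes became 6942 higher and 324 lower at day 3, 6372 and 210 at day 7, 2096 and 117 at day 14 and 64 and 8 at day 21. At day 21 no member was called under either rescaling.

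**Figure D1:**
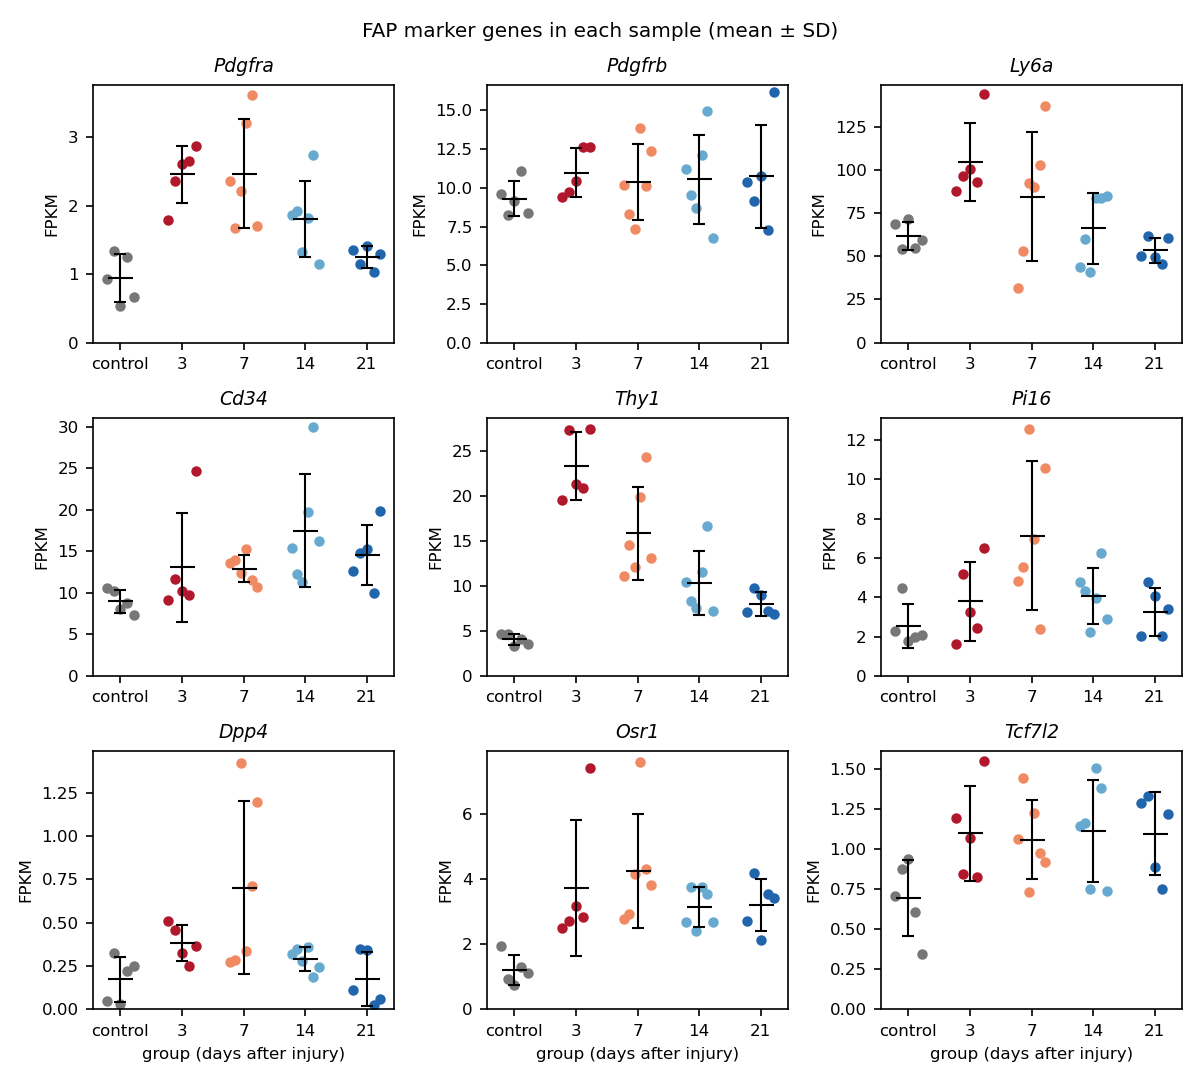
FPKM (vertical axes, from 0) of each of the 9 FAP marker genes in every sample, by group, with mean and SD. Thy1 and Osr1 lay above every control sample in all injured samples, and Pdgfrb overlapped throughout. Day 7 replicates 3 and 6 had the highest values of both Pi16 and Dpp4.

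Pdgfra, the receptor for PDGF-AA and PDGF-CC that defines FAPs, was at 0.929, 1.34, 0.536, 1.25 and 0.661 FPKM in the 5 control samples and 1.80, 2.37, 2.62, 2.65 and 2.87 FPKM in the 5 day 3 samples. The lowest, median and highest of the 6 samples were 1.68, 2.29 and 3.62 FPKM at day 7 and 1.15, 1.84 and 2.75 FPKM at day 14, and the 5 day 21 samples held 1.35, 1.15, 1.42, 1.03 and 1.30 FPKM. All day 3 and day 7 samples lay above the highest control, against 4 of 6 at day 14 and 2 of 5 at day 21. Mean FPKM was 2.61, 2.62, 1.92 and 1.33 times the control mean at the successive times. On the log2 scale Pdgfra was higher by 0.84 ± 0.16 (SE; adjusted p = 0.000166), 0.82 ± 0.15 (adjusted p = 0.000498) and 0.53 ± 0.15 (adjusted p = 0.0163), while the day 21 difference of 0.23 ± 0.16 did not pass (adjusted p = 0.441). The day 14 call was lost without control replicate 3 (adjusted p = 0.0536) or day 14 replicate 5 (adjusted p = 0.0529), and after quantile normalization (adjusted p = 0.0522). Pdgfra lies at chr5:75152292-75198215 (GRCm38, plus strand) over 3 other annotated genes, 2 of them on the opposite strand, and the libraries did not keep strand, so reads of these cannot be told apart.

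Pdgfrb, the receptor for PDGF-BB at chr18:61045150-61085061 (GRCm38), did not follow Pdgfra. Its FPKM was 9.62, 8.24, 9.18, 11.1 and 8.39 in the controls, 9.40, 9.71, 10.4, 12.7 and 12.7 at day 3 and 10.4, 9.16, 10.7, 7.26 and 16.2 at day 21, and the lowest, median and highest samples were 7.33, 10.2 and 13.9 at day 7 and 6.75, 10.4 and 14.99 at day 14. Every group overlapped the controls, and the log2 differences of 0.12 to 0.21 had adjusted p from 0.388 to 0.695. The log2 ratio of Pdgfra to Pdgfrb within a sample, which no scaling between samples can change apart from the pseudocount, rose from -2.42 ± 0.27 (SD) in the controls to -1.79 ± 0.12 at day 3 and -1.72 ± 0.37 at day 7. Both differences passed a two-sided exact permutation test with adjustment over the 32 ratio comparisons made (adjusted p = 0.0277 for each), and all 5 day 3 samples and 5 of 6 day 7 samples lay above the highest control. The smallest unadjusted p these tests can give is 0.00794 for 5 against 5 samples and 0.00433 for 5 against 6. At day 14 the ratio differed by 0.39 (adjusted exact p = 0.0533) and at day 21 by 0.08 (adjusted exact p = 0.77).

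The ligands were measured beside their receptors. Of the 7 genes of PDGF ligands and receptors, 3 were called higher and 1 lower at both day 3 and day 7, 2 higher at day 14 and none at day 21 in limma, with Pdgfra itself among those called higher. Pdgfa, which encodes a PDGFRα ligand, was at 12.3 ± 1.30 FPKM in the controls and 8.97 ± 0.679 FPKM at day 3, a fall of 0.41 ± 0.14 on the log2 scale (adjusted p = 0.0205). This direction depended on the scaling, since Pdgfa differed by 0.36 with a common sum (adjusted p = 0.123) and by 0.19 with own totals (adjusted p = 0.254). Pdgfc, whose product also binds PDGFRα, was at 0.0997 ± 0.0685 FPKM in the controls and 0.871 ± 0.226 FPKM at day 3 (log2 difference 0.76 ± 0.13, adjusted p = 4.38e-05), and was called at day 7 too (log2 difference 0.72 ± 0.12). Pdgfa remained the more abundant of these 2 ligands per length. Pdgfb was at 10.9 ± 1.65 FPKM in the controls and 10.96 ± 1.52 FPKM at day 3 and Pdgfd at 1.01 ± 0.143 FPKM in the controls and 0.865 ± 0.610 FPKM at day 3, and neither was called at any time. Pdgfrl, a receptor-like gene, was at 0.770 ± 0.168 FPKM in the controls and 3.54 ± 0.492 FPKM at day 3 (log2 difference 1.36 ± 0.22, adjusted p = 4.26e-05), the largest called rise of the list on the log2(FPKM + 1) scale, which compresses the lower Pdgfc more.

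Thy1, which encodes the surface glycoprotein CD90, had the largest log2(FPKM + 1) difference of the tested members at days 3, 7 and 14. By the ratio of means it stood first at day 3, while Dpp4 was higher at day 7 and Osr1 at day 14. It was at 4.64, 4.66, 3.30, 4.10 and 3.49 FPKM in the controls and 19.5, 27.3, 21.3, 20.8 and 27.4 FPKM at day 3. The lowest, median and highest samples were 11.1, 13.8 and 24.3 FPKM at day 7 and 7.25, 9.38 and 16.6 FPKM at day 14, and the day 21 samples were at 7.10, 9.81, 8.96, 7.18 and 6.85 FPKM. All 22 injured samples lay above every control, and the day 3 samples did not overlap those of day 14 or day 21. Mean Thy1 was 5.76 times the control mean at day 3, 3.93 times at day 7, 2.55 times at day 14 and 1.98 times at day 21. The log2 differences were 2.26 ± 0.20 (adjusted p = 7.5e-08), 1.70 ± 0.19 (adjusted p = 2.11e-06), 1.12 ± 0.19 (adjusted p = 0.000463) and 0.83 ± 0.20 (adjusted p = 0.0195). The day 21 call was lost without control replicate 5 (adjusted p = 0.0549) or day 21 replicate 2 (adjusted p = 0.067), and after quantile normalization or either rescaling (adjusted p = 0.0504 to 0.141).

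Thy1 also rose relative to Pdgfra within samples. The log2 ratio of Thy1 to Pdgfra was 1.38 ± 0.15 in the controls and 2.81 ± 0.20, 2.26 ± 0.27, 1.98 ± 0.20 and 1.99 ± 0.23 at days 3, 7, 14 and 21. With the pseudocount of 1, every injured sample lay above every control. Each difference had an adjusted p of 0.0277 in the exact permutation test. With a pseudocount of 0.1, which weighs Pdgfra more evenly, the difference was 1.15 at day 3 and passed, whereas the later differences of 0.59, 0.39 and 0.53 did not (adjusted p = 0.0924, 0.12 and 0.0924). In plain FPKM the separation was not complete. Control replicate 3 (Thy1 3.30, Pdgfra 0.536 FPKM) had a higher ratio than day 14 replicate 2 (8.36 and 1.93 FPKM). T cells carry THY1 too, and the 10 T cell markers summed to 1.33 to 2.99 FPKM in the controls and 1.60 to 7.77 FPKM at day 3. Of these markers 3 passed the filter, and 0 were called in limma at any time. The markers below the filter could not be called, and the part of T cells in the Thy1 values was not tested.

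**Figure D2:**
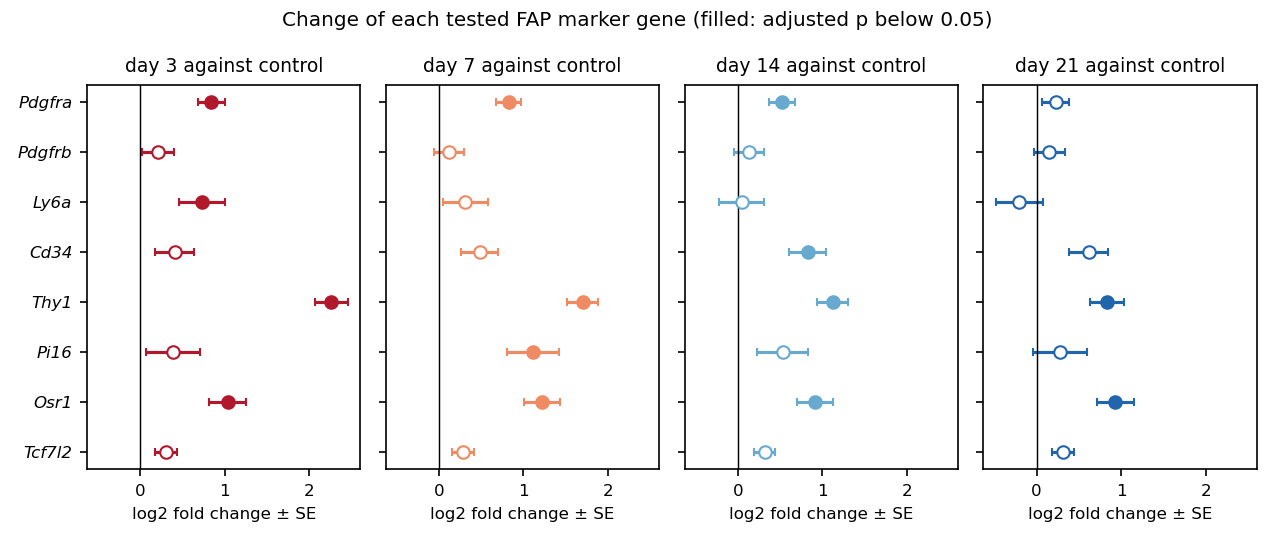
Difference from control in log2(FPKM + 1), with SE, of the 8 tested genes at each time (filled points, adjusted p below 0.05). Thy1 stood highest at days 3, 7 and 14, Osr1 stayed near 1 throughout, and Cd34 was largest at day 14.

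Osr1, which encodes a transcription factor of embryonic limb connective tissue that reappears in FAPs of injured muscle, was the only other member above the controls in every injured sample. Its FPKM was 1.93, 0.928, 0.743, 1.30 and 1.12 in the controls, 2.48, 2.72, 3.16, 2.83 and 7.42 at day 3 and 2.70, 4.18, 2.14, 3.54 and 3.43 at day 21, with a lowest, median and highest sample of 2.76, 3.98 and 7.59 at day 7 and 2.40, 3.10 and 3.77 at day 14. Day 3 replicate 5 and day 7 replicate 4 stood well above the rest of their groups. The mean stayed well above that of the controls to day 21. Osr1 was 3.09, 3.53, 2.60 and 2.66 times the control mean, with log2 differences of 1.04 ± 0.22, 1.22 ± 0.21, 0.92 ± 0.21 and 0.93 ± 0.22 (adjusted p = 0.000543, 0.000271, 0.00422 and 0.0194). At day 21 the call was lost without control replicate 3 (adjusted p = 0.0515) or day 21 replicate 2 (adjusted p = 0.067), and with voom weights on the reads (adjusted p = 0.0901), quantile normalization or either rescaling (adjusted p = 0.0515 to 0.0709). The gene, at chr12:9570116-9581500 (GRCm38, plus strand), overlaps 1700022H16Rik on the opposite strand.

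Every sample lay above the highest control for 4 of the 8 tested genes in the day 3 comparison, 4 in that of day 7, 3 in that of day 14 and 2 in that of day 21. Over all tested genes this held for 19.8%, 7.25%, 7.67% and 5.26% at these times.

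Ly6a and Cd34, the surface markers used together to sort FAPs, followed different courses. Ly6a, of the LY6 family of lipid-anchored proteins, was at 68.8, 54.3, 71.8, 54.5 and 59.5 FPKM in the controls and 88.0, 96.4, 101, 93.1 and 144 FPKM at day 3, where every sample exceeded every control. At day 7 its lowest, median and highest samples were 31.8, 91.4 and 137 FPKM, spanning the whole range of the controls, and at day 14 they were 41.1, 71.9 and 84.7 FPKM. The day 21 samples were at 50.4, 61.8, 49.4, 45.6 and 60.4 FPKM, and 3 of these 5 were below the lowest control. Ly6a was called at day 3 alone (log2 difference 0.73 ± 0.28, adjusted p = 0.0339), and without day 3 replicate 5, at 144 FPKM, the difference was 0.61 with an adjusted p of 0.0929. Leaving out control replicate 2, 4 or 5 or day 3 replicate 3, or testing without the filter, also ended the call (adjusted p = 0.0533 to 0.0685). At the later times the log2 differences were 0.31 ± 0.27, 0.04 ± 0.27 and -0.20 ± 0.28 (adjusted p = 0.392, 0.924 and 0.723). The gene has close relatives in the Ly6 cluster, and reads they share could be split between them.

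Cd34, which encodes a sialomucin of progenitor and endothelial cells, was highest later. It was at 10.5, 10.2, 8.02, 8.75 and 7.36 FPKM in the controls, 9.18, 11.6, 10.2, 9.68 and 24.7 FPKM at day 3 and 12.7, 14.8, 15.3, 9.99 and 19.8 FPKM at day 21. Its lowest, median and highest samples were 10.7, 12.99 and 15.2 FPKM at day 7 and 11.3, 15.8 and 29.9 FPKM at day 14, all above the highest control. In the main limma fit day 14 gave the only call (log2 difference 0.83 ± 0.22, adjusted p = 0.0108), and mean FPKM was then 1.94 times that of the controls. Fitting only the 2 groups compared gave calls at days 7 and 21 (adjusted p = 0.026 and 0.0404), as did sample quality weights (adjusted p = 0.028 and 0.0238). Leaving out the low-weight samples gave a call at day 7 (adjusted p = 0.0283), and either rescaling gave calls at days 3 and 7. The differences at days 3, 7 and 21 were 0.41 ± 0.23, 0.48 ± 0.22 and 0.62 ± 0.23 (adjusted p = 0.16, 0.1 and 0.134), and without day 3 replicate 5 the first was 0.17. That sample was the highest of its group for each of the 8 tested genes, and it stood far from the others for Ly6a, Cd34 and Osr1. It also had the highest endothelial sum of the group (200.1 FPKM, the others 88.7 to 115 FPKM) and the highest T cell sum (7.77 FPKM, the others 1.60 to 2.30 FPKM). Its leukocyte and macrophage sum was the lowest (516 FPKM, the others 1400.4 to 2818 FPKM). The part of these cells in its values was not tested.

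The log2 ratio of Ly6a to Cd34 was 2.66 ± 0.28 in the controls and 2.98 ± 0.29 at day 3, and then lower, at 1.87 ± 0.37 at day 14 and 1.83 ± 0.23 at day 21 (adjusted exact permutation p = 0.0277 for each of the later times, with 5 of 6 and 5 of 5 samples below the lowest control). Both hold with a pseudocount of 0.1. Endothelial cells carry both genes, and of 10 endothelial markers 0 were called higher at any time, while 3, 2, 1 and 1 were called lower. Kdr, a VEGF receptor, fell most at day 3, from 9.59 ± 0.52 FPKM to 3.29 ± 0.89 FPKM. Relative to the endothelial adhesion gene Pecam1 within a sample, Cd34 was higher by 0.56 on the log2 scale at day 14, in 6 of 6 samples above every control (adjusted exact p = 0.0277), and by 0.45 at day 7 (adjusted exact p = 0.0462), the latter not passing with a pseudocount of 0.1 or 0.5 (adjusted p = 0.0693 and 0.0544). The sample with the highest Cd34, day 14 replicate 5 at 29.9 FPKM, also had the highest endothelial sum of its group, 271 FPKM against 164 FPKM for the group median, and the part of this in the result was not tested.

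**Figure D3:**
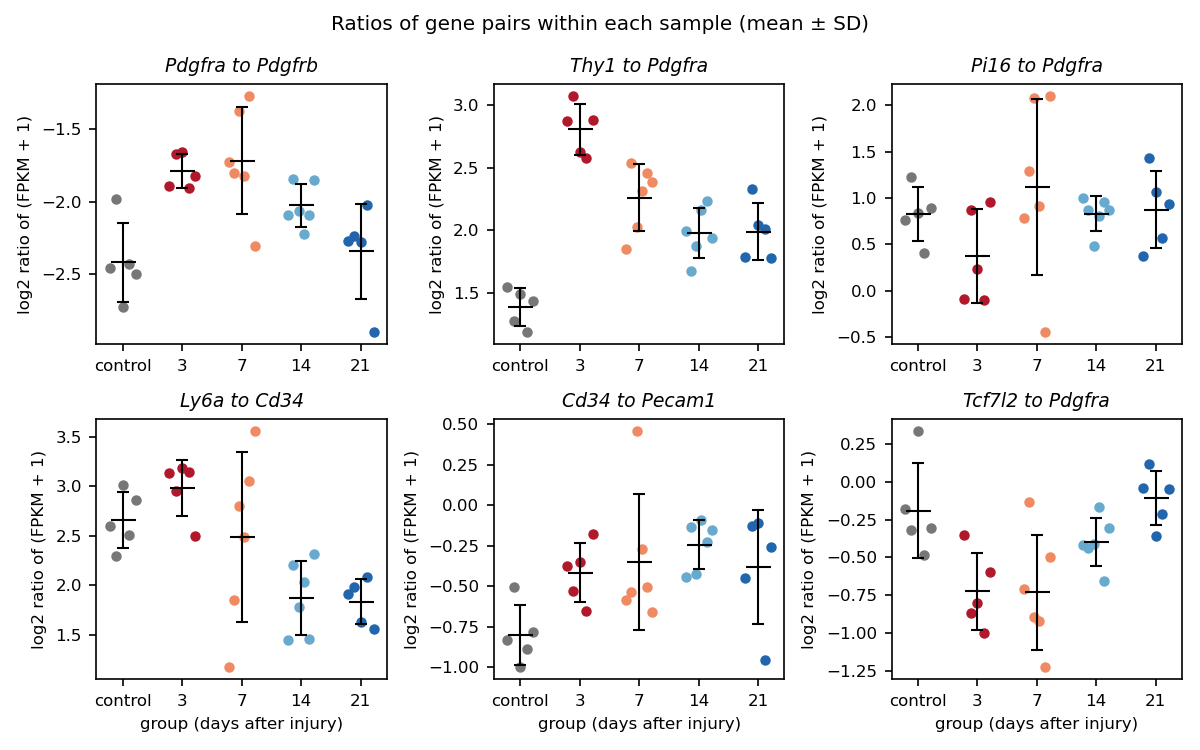
Log2 ratios of (FPKM + 1) of 6 gene pairs in each sample, by group, with mean and SD. On this scale, though not in plain FPKM, Thy1 to Pdgfra lay above every control in all injured samples. Ly6a to Cd34 was lower at days 14 and 21, and Pi16 to Pdgfra spread widely at day 7.

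Pi16 and Dpp4, the genes of the perivascular FAP state, were highest at day 7. Pi16, which encodes a peptidase inhibitor, was at 2.28, 4.49, 1.75, 1.98 and 2.07 FPKM in the controls, 1.63, 5.17, 3.26, 2.41 and 6.48 FPKM at day 3 and 2.05, 4.79, 4.05, 2.003 and 3.39 FPKM at day 21, and its lowest, median and highest samples were 2.38, 6.24 and 12.6 FPKM at day 7 and 2.23, 4.14 and 6.26 FPKM at day 14. Control replicate 2, at 4.49 FPKM, stood apart from the other controls, and 5 of 6 day 7 samples exceeded it. Pi16 was called at day 7 (log2 difference 1.12 ± 0.31, adjusted p = 0.00837, 2.84 times the control mean) but not at days 3, 14 or 21 (log2 differences 0.39 ± 0.32, 0.53 ± 0.31 and 0.28 ± 0.32). The day 7 call was kept in every alternative tried, with differences of 0.94 to 1.84.

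Dpp4, which encodes a cell-surface peptidase, was at 0.0475, 0.322, 0.0270, 0.219 and 0.249 FPKM in the controls, 0.508, 0.455, 0.324, 0.250 and 0.364 FPKM at day 3 and 0.113, 0.345, 0.340, 0.0211 and 0.0567 FPKM at day 21. Its lowest, median and highest samples were 0.271, 0.522 and 1.42 FPKM at day 7 and 0.185, 0.299 and 0.360 FPKM at day 14. In two-sided exact permutation tests of FPKM, adjusted over the 4 times, Dpp4 was higher at day 3 by 0.208 FPKM (p = 0.0159, adjusted p = 0.0346) and at day 7 by 0.529 FPKM (p = 0.0173, adjusted p = 0.0346), in 4 of 5 and 4 of 6 samples above every control. At day 14 (0.116 FPKM, adjusted exact p = 0.156) and day 21 (0.00225 FPKM, adjusted exact p = 0.984) it did not pass. The reads behind these values number 2 to 156 per sample. In limma without the filter on low values the day 7 difference was 0.49 ± 0.14 (adjusted p = 0.0213) and that of day 3 was 0.24 ± 0.14 (adjusted p = 0.306). Leaving out control replicate 1, 3, 4 or 5 ended both calls of the exact test (adjusted p = 0.0635 or 0.0762). The day 3 call was also lost without day 3 replicate 1, 2, 3 or 5 and the day 7 call without day 7 replicate 3, 4, 5 or 6 (adjusted exact p = 0.0635 each), with fewer divisions of the samples then possible.

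The 2 samples with the most Pi16 were also those with the most Dpp4, day 7 replicate 3 (12.6 and 1.42 FPKM) and day 7 replicate 6 (10.6 and 1.19 FPKM), whereas Pdgfra was highest in day 7 replicates 5 and 4. Other cell markers moved with this division. The 8 Schwann cell markers summed to 149 and 1072 FPKM in replicates 3 and 6 against a group median of 31.0 FPKM, and the 8 adipocyte markers to 363 and 205 FPKM against 115 FPKM. The 10 leukocyte and macrophage markers were lowest in these samples, at 188 and 73.6 FPKM, against 2735 FPKM in replicate 5. Replicate 5 had the least Pi16 of the group (2.38 FPKM), but its Dpp4 of 0.709 FPKM lay above every control. The part of these cells in the Pi16 and Dpp4 values was not tested. In the log2 ratio to Pdgfra, Pi16 passed the test at no time (differences of -0.45, 0.29, 0.0027 and 0.05, adjusted exact p = 0.208 to 0.978). Dpp4 to Pdgfra differed by -0.60 at day 3 on this scale (adjusted exact p = 0.0277), but the pseudocount of 1 outweighs Dpp4 itself, and with 0.1 the difference was -0.40 with an adjusted p of 0.485.

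Tcf7l2, which encodes a transcription factor of Wnt signalling found in muscle connective tissue, was slightly higher in each injured group and was not called, though it lay close to the threshold. Its FPKM was 0.705, 0.878, 0.936, 0.604 and 0.344 in the controls, 1.20, 0.847, 1.07, 0.8287 and 1.55 at day 3 and 1.29, 1.33, 0.887, 0.754 and 1.22 at day 21, and the lowest, median and highest samples were 0.732, 1.02 and 1.44 at day 7 and 0.738, 1.16 and 1.51 at day 14. All groups overlapped the controls. The log2 differences were 0.31 ± 0.13, 0.29 ± 0.13, 0.32 ± 0.13 and 0.31 ± 0.13, with unadjusted p of 0.0265, 0.0322, 0.0182 and 0.0265 in limma and adjusted p of 0.0595, 0.0871, 0.0741 and 0.187. Mean FPKM was 1.59 times the control mean at day 3, which the pseudocount of 1 compresses, and with a pseudocount of 0.1 Tcf7l2 was called at day 3 (log2 difference 0.62, adjusted p = 0.0445). Tcf7l2 was also called at day 3 with voom (adjusted p = 0.0454) and without control replicate 3 or day 3 replicate 2 or 4 (adjusted p = 0.041 to 0.0483). It was called at day 7 without replicate 3 of that day (adjusted p = 0.0471), and at day 14 without replicate 3 or 6 of that day (adjusted p = 0.0427 and 0.0414). Blocking on the letter of the sample name gave calls at days 7 and 14 (adjusted p = 0.0483 and 0.0397), as did leaving out the low-weight samples (adjusted p = 0.0302 and 0.0486). Sample quality weights gave a call at all 4 times (adjusted p = 0.0207, 0.0247, 0.0386 and 0.0261). Relative to Pdgfra it was lower at day 3, with a log2 ratio of -0.72 ± 0.25 against -0.19 ± 0.31 (adjusted exact p = 0.0462), a difference that did not pass with a pseudocount of 0.1 or 0.5 (adjusted p = 0.12 and 0.0544). Among 8 genes that act with Tcf7l2 in Wnt signalling, such as Axin2 and Ctnnb1, 5 were tested and none was called at any time in limma, and Sp5 was listed at 0 in every sample.

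Changes between successive times were smaller. Of the 8 genes, 0 were called from day 3 to day 7, where 2 had an unadjusted p below 0.05 in limma and 0.0478% of all tested genes were called. From day 7 to day 14, 0 were called and 1 had an unadjusted p below 0.05 (background 0.335%), and from day 14 to day 21 both counts were 0 (background 0%). The voom fit also called 0 in each. The 2 genes at day 7, named after their values were seen, were Thy1 (log2 difference -0.56 ± 0.19, adjusted p = 0.127) and Pi16 (0.72 ± 0.31, adjusted p = 0.242), in opposite directions, and the gene at day 14 was Thy1 (-0.58 ± 0.18, adjusted p = 0.183). Without day 7 replicate 5, the sample nearest to day 3, 2 of the 8 were called from day 3 to day 7, but so were 1792 of all 14630 tested genes. Over the whole course, from day 3 to day 21, 3 of the 8 were called, each of them lower at day 21, against 25.5% of all tested genes called in either direction (1351 higher and 2377 lower). Thy1 fell by 1.43 ± 0.20 on the log2 scale (adjusted p = 4e-05), Ly6a fell by 0.94 ± 0.28 (adjusted p = 0.0146) and Pdgfra fell by 0.62 ± 0.16 (adjusted p = 0.00603). For Osr1 the same difference was -0.10 ± 0.22 and for Cd34 0.21 ± 0.23, neither of which passed.

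Other genes of the same cells, also chosen with earlier results of these data known, were set beside the 9. Of 13 tested FAP and fibroblast genes outside the set, 6, 7, 6 and 0 were called higher at days 3, 7, 14 and 21, with median log2 differences of 0.31, 0.65, 0.47 and 0.36. Of all tested genes, 43.2%, 29.4%, 20.3% and 3.43% were called in either direction at these times, and the same shares stand beside the lists below. Cd248, which encodes the stromal glycoprotein endosialin, had the largest rise at day 3 and was at 3.10 ± 0.870 FPKM in the controls and 17.97 ± 3.596 FPKM at day 3 (log2 difference 2.22 ± 0.28, adjusted p = 1.92e-06). Genes known to rise in fibroblasts after injury, and listed for that reason, moved further. Among the 12 of them, 11, 11, 5 and 1 were called higher at the successive times, with medians of 1.74, 2.20, 0.96 and 0.47, and Timp1, a metalloprotease inhibitor, was at 2.85 ± 2.22 FPKM in the controls and 75.0 ± 23.7 FPKM at day 3 (log2 difference 4.46 ± 0.44).

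The genes of 2 fibroblast states, chosen with earlier results of these data known, moved in both directions. Of 10 genes of Dpp4-positive adventitial fibroblasts, 3 were called higher and 2 lower at day 3, and 2, 1 and 1 higher at the later times. Fbn1, which encodes the microfibril protein fibrillin-1, was at 1.87 ± 0.752 FPKM in the controls and 9.74 ± 1.95 FPKM at day 3 (log2 difference 1.92 ± 0.26), while Sema3c, a secreted guidance factor, was at 5.27 ± 1.33 FPKM in the controls and 2.64 ± 1.13 FPKM at day 3 (log2 difference -0.82 ± 0.23). Of 10 genes of Cxcl14-positive interstitial fibroblasts, 2 were called higher and 1 lower at day 3, and 3, 4 and 1 higher later. Lum, which encodes the collagen-binding proteoglycan lumican, was at 9.82 ± 3.56 FPKM in the controls and 30.6 ± 13.2 FPKM at day 3 (log2 difference 1.54 ± 0.32), and the steroid enzyme gene Hsd11b1 at 1.56 ± 0.652 FPKM in the controls and 0.943 ± 0.337 FPKM at day 3 (log2 difference -0.38 ± 0.15). With a common sum Hsd11b1 differed by 0.056 (adjusted p = 0.848) and Sema3c by -0.22 (adjusted p = 0.489). The medians of the lists at day 3 were -0.20 and 0.19. Among 11 tested relatives of the members by sequence family, 5, 6, 0 and 0 were called higher and 0, 1, 1 and 1 lower. The largest rise at day 3 was that of Csf1r, a receptor of the same kinase family as Pdgfra found on macrophages, at 1.27 ± 0.525 FPKM in the controls and 29.4 ± 12.9 FPKM at day 3.

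Marker lists of other cells moved as well, more than the FAP genes in some cases. All 10 leukocyte and macrophage markers were called higher at day 3, then 9, 4 and 0, and their sum went from 24.6 to 39.5 FPKM in the controls to 516 to 2818 FPKM at day 3. Lyz2, the lysozyme gene, had the largest rise, to 1165 ± 633 FPKM. Of 8 fast muscle genes, 0 were called higher and 7, 3, 1 and 0 lower, with Myh4 at 5195 ± 838 FPKM in the controls and 1497 ± 709 FPKM at day 3. The 7 tested satellite cell and myoblast genes had 3, 2, 2 and 2 called higher, led at day 3 by Myog at 1.78 ± 0.694 FPKM in the controls and 153 ± 70.1 FPKM at day 3. Of 10 pericyte and smooth muscle genes, 2 were called higher and 4 lower at day 3, with Acta2 at 71.6 ± 25.9 FPKM in the controls and 152 ± 28.3 FPKM at day 3 and Kcnj8 at 16.4 ± 2.38 FPKM in the controls and 6.03 ± 2.20 FPKM at day 3. In the tenocyte list Scx was the only gene called at day 3 against control, at 4.32 ± 1.66 FPKM in the controls and 27.1 ± 9.91 FPKM at day 3. Of 7 tested Schwann cell genes none was called at any time in limma. Of 7 tested adipocyte genes, 0 were called at day 3 and 4 were higher at day 7, the time at which Pi16 and Dpp4 were highest. Of the list genes called at day 3, Acta1, Mylpf, Tek, Limch1, Pdgfa and Hsd11b1 changed sign under at least 1 other scaling. What these cells contribute to the FAP marker values was not tested.

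**Figure D4:**
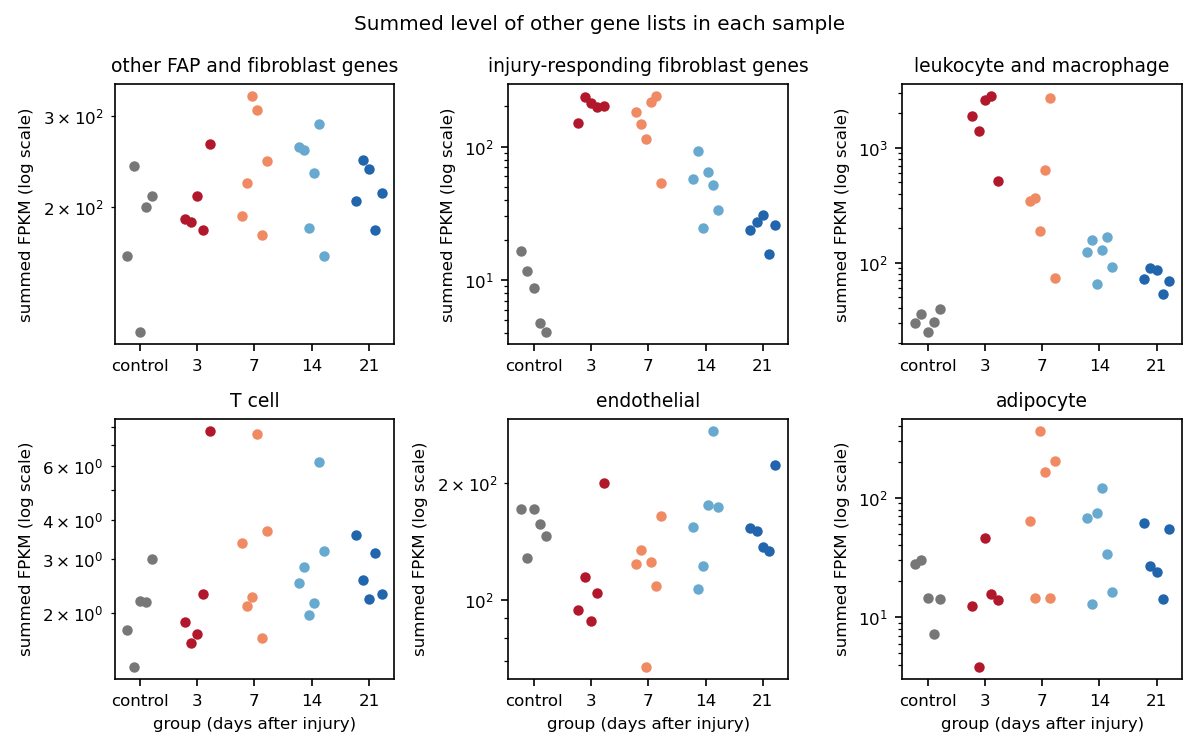
Summed FPKM (log scale) of 6 marker lists in each sample, by group. The leukocyte and macrophage sum was 24.6 to 39.5 FPKM in the controls and 516 to 2818 FPKM at day 3, T cell markers stayed between 1.33 and 7.77 FPKM, and adipocyte markers spread from 14.4 to 363 FPKM at day 7.

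Within groups the FAP markers tended to vary together. After the group mean was removed from each value, all 28 pairs of the 8 tested genes had a positive Pearson r over the 27 samples, from 0.12 to 0.74 with a median of 0.39. The pair Pdgfra and Thy1 was highest, and Ly6a with Tcf7l2 or Pdgfra was lowest. These values are a description, and the points share their library, its scaling and the mix of cells in it. The deviations of Pi16 followed the mean of the adventitial fibroblast genes (r = 0.78), those of Cd34 followed the endothelial list (r = 0.71) as well as the other FAP genes (r = 0.75), and those of Pdgfra followed the injury-responding fibroblast genes (r = 0.67) and the leukocyte and macrophage genes (r = 0.57), with which Pi16 had an r of -0.52.

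**Figure D5:**
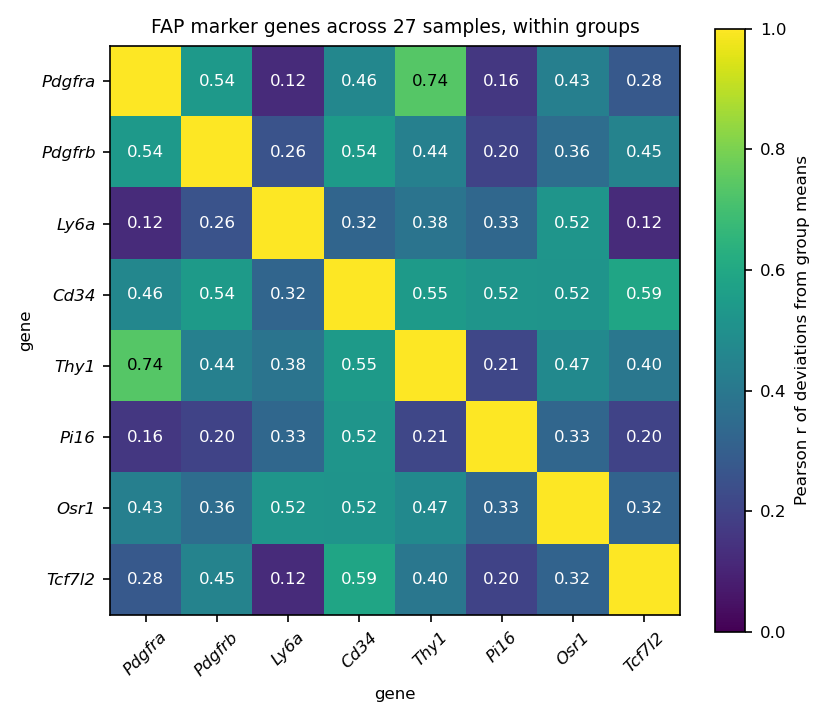
Pearson r between the deviations from group means of log2(FPKM + 1) for each pair of the 8 tested genes, over 27 samples. All are positive, from 0.12 to 0.74, with Pdgfra and Thy1 the closest pair.

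The genes most like each marker over all 27 samples, by Pearson r of log2(FPKM + 1) and without a test, differed from marker to marker. For Pdgfra they were Man1a (0.94), Axl (0.93) and Anpep (0.93), and for Thy1 Fkbp10 (0.95), Cd248 (0.95) and Dbn1 (0.95). For Osr1 they were C1ra (0.86), Thbs3 (0.85) and Mfap2 (0.84), which include the complement protease gene C1ra and the matrix genes Thbs3 and Mfap2. Pi16 was followed by Igfbp6 (0.80), Nov (0.77) and Dnm1 (0.76), the first of them a gene of the adventitial list. For Ly6a, Crip1 (0.78) and the interferon-induced gene Ifit1 (0.78) were among them. Cd34 lay closest to Rec8 (0.87), Ebf1 (0.84) and Sez6l2 (0.82), Tcf7l2 to 1110006O24Rik (0.78), Maged2 (0.77) and Fyn (0.77) and Pdgfrb to Tmc6 (0.79), Abl1 (0.77) and Sptan1 (0.77). These neighbours depend on the measure. By Spearman's rho 0 of the 3 for Ly6a were kept, 1 for Pdgfra, Pi16, Cd34 and Osr1, and 2 for Pdgfrb, Tcf7l2 and Thy1. With a common sum 0 were kept for Pdgfrb, Ly6a and Cd34, 1 for Osr1, 2 for Pi16, Tcf7l2 and Thy1, and 3 for Pdgfra. The groups differ in many genes at once, so high values of r over all samples are shared by many of them.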

How the data were processed

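RNA was extracted with Trizol from tibialis anterior muscle kept in RNAlater, and poly-A libraries without strand information were sequenced on an Illumina NovaSeq. The authors mapped reads with HISAT2 2.0.5, counted them per gene with featureCounts 1.5.0-p3 and deposited FPKM per gene and sample. Their FPKM values gave whole reads per gene within 0.01 for every value tested. The reads assigned to genes are therefore known: 14376395 to 24436763 per sample, with a median of 17398586. Reads outside the counted genes are not among them. The sum of fragments behind the deposited FPKM denominator differed from these totals by a factor of 0.747 to 1.48, lower in the controls than at day 3. Median-ratio scaling changed the number of genes called at day 3 only from 6316 to 6313. The deposited values thus already lay close to such a scaling.

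The samples were grouped by their treatment and day labels. The members and gene lists were chosen with earlier results of these data known, so list counts are no independent evidence. From the deposited FPKM, log2(FPKM + 1) of the genes at or above 0.5 FPKM in at least 5 samples entered a limma model (limma 3.58.1, R 4.3.3) that held all 5 groups, with Benjamini-Hochberg adjustment over all 14630 tested genes, and a gene was called at an adjusted p below 0.05. The variance was given a trend with the mean. Dpp4, below the filter, and within-sample log2 ratios were compared with two-sided exact permutation tests in scipy 1.17.1. The named genes were the 9 members, the called gene of each list with the largest rise and fall at day 3, the PDGF ligands, any list gene at 0 in every sample, the genes of the ratio pairs, and the 3 genes most like each member by Pearson r, of which 1 is not reported here. Ccn4 is listed under its older name Wisp1. Positions are those of the deposited table (GRCm38), and motifs were searched on both strands. Scripts were tested on simulated data. Alternatives were other pseudocounts, filters, scalings, sample weights, voom on the recovered reads, a replicate block, a fit of only the 2 groups compared and leaving out samples.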

Additional observations from a re-analysis of the deposited data

Results flagged for a closer look

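Of 45 groups of 5 or 6 samples examined for a sample far from the others, 5 held one. Chance gives about 1 in 20 groups only where the groups are independent and their values normally distributed. Here 3 of the 5 came from the same sample, so no excess over chance can be read from the count. Day 3 replicate 5 stood apart for 3 genes, with Ly6a at 143.83 FPKM (next sample 101 FPKM), Cd34 at 24.697 FPKM (next 11.6 FPKM) and Osr1 at 7.4156 FPKM (next 3.16 FPKM). By its overall profile this sample lay nearest to the day 7 group. Control replicate 2 had Pi16 at 4.4886 FPKM (next 2.28 FPKM), and day 7 replicate 4 had Osr1 at 7.593 FPKM (next 4.31 FPKM).

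Of the 8 tested genes, 3 differed between their day 3 and day 21 effects, by limma's test of that difference. This is the comparison of day 21 against day 3 given above, in which 25.5% of all tested genes were called in either direction. The day 21 effect minus the day 3 effect was -0.93784 on the log2 scale for Ly6a (adjusted p = 0.0146), -1.4324 for Thy1 (adjusted p = 4e-05) and -0.61503 for Pdgfra (adjusted p = 0.00603). Both effects use the same 5 controls, which cancel in the difference.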

How the results depend on the processing

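Of 1008 alternative values of 38 member fold changes, 936 kept direction and side of the threshold, 21 lost the call, 45 gained one and 6 changed sign. These 38 were the differences from control and those between injured groups with an unadjusted limma p below 0.05. The other 26, all between injured groups, are not in these counts, and 15 of them changed sign in at least 1 alternative. The Osr1 and Cd34 differences from day 3 to day 21 belong to those 26. Of 400 alternative values of 32 ratios, 296 were kept, 80 lost the call, 5 gained one and 19 changed sign. Members called at days 3 and 7 (4 each) became 8 with a common sum or own totals. At day 21 (2) they became 0 with quantile normalization, a common sum or own totals, 4 with sample quality weights (all tested genes called from 502 to 2471) and 1 with voom, and 0 to 2 with 1 sample left out (0 without day 21 replicate 2, and 1 without control replicate 3 or 5). From day 3 to day 7 (0) they became 1 with quality weights, 2 without the samples nearest the other group (all tested genes called from 7 to 1892 and 2265), and 0 to 2 with 1 sample left out. The 12 ratio differences became 6 with a pseudocount of 0.1 and 0 to 14 with 1 sample left out. They became 0 without control replicate 1, 3, 4 or 5 and 7 without day 3 replicate 2, 3, 4 or 5. Smaller groups allow fewer permutations, but leaving out control replicate 2 makes groups of the same size. Without it the ratio of Pdgfra to Pdgfrb at day 14 passed (adjusted exact p = 0.0391). The cause of these changes was not tested.

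Signs turned for Ly6a at day 7 (-0.20 without low-weight samples) and at day 14 (-0.038 to 0.17 with 1 sample left out). With a replicate block on the replicate number Ly6a at day 14 was -0.079, and -0.023 with the letter of the sample name as block. Same-numbered samples had deviations correlated by -0.52 to 0.57 (51 pairs, 11 of 27 samples nearest their own number), so the numbers were not taken to pair samples. With a pseudocount of 0.1, differences turned for Dpp4 to Pdgfra at day 7 (0.16), Pi16 to Pdgfra at days 14 (-0.21, and -0.073 with 0.5) and 21 (-0.072), and Dpp4 to Pi16 at days 3 (0.45) and 7 (0.11). With 1 sample left out the ranges were -0.0039 to 0.22 for Pdgfra to Pdgfrb at day 21, -0.10 to 0.10 and -0.091 to 0.17 for Pi16 to Pdgfra at days 14 and 21, -0.38 to 0.036 for Dpp4 to Pi16 at day 3, -0.38 to 0.094 for Ly6a to Cd34 at day 7, and -0.0402 to 0.0407 FPKM for Dpp4 at day 21. The 2 planned count models were not run, since the deposited unit is FPKM. Low reads limit Dpp4 (2 to 156 per sample) and Osr1 in the controls (18 to 53).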
